A study of Mus musculus with 1187 samples.

Results

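The cells described here were sorted brain endothelial cells in which at least 2 of 6 genes of arterial endothelium were on (Bmx, Gkn3, Sema3g, Hey1, Gja4 and Stmn2) and fewer than 2 of 5 genes of elastic fibres and the matrix around them were on (Fbln5, Fbln2, Mgp, Eln and Fbn1). A gene counted as on in a cell at 50 CPM or more, CPM being reads of the gene per 1000000 reads of that cell. The rule took 207 of 1187 cells, a share of 17.4% (exact binomial 95% interval 15.3% to 19.7%). The members were chosen by the measured levels of these 11 genes, whose values are therefore given as a description. They are called arteriolar-marker cells after the genes that chose them; where a cell had sat along a vessel was not measured. All intervals given here cover counting error only, and not differences between animals or plates. Reads of a cell are not independent molecules, so an interval computed from reads can be too narrow even for that.

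The mice were adult (3 months old in the series' design text) C57BL/6 animals carrying the ret allele of Pdgfb, a Cldn5-GFP reporter that lights up endothelium and a Cspg4-DsRed reporter of pericytes and oligodendrocyte precursors. Cells positive for GFP and negative for DsRed were sorted singly into plates, and full-length cDNA was sequenced by SmartSeq2. The labels name 590 cells from Pdgfb ret/+ mice, which serve as controls and also carry 1 ret allele, and 597 cells from Pdgfb ret/ret mice, whose brains are short of pericytes. No wild-type mice and no separate animals are named. The columns of the count table are named by plate and well only, so no cell could be given a genotype, and the values are given for plates 521, 522, 523 and 524 one by one. Plate, genotype and animal cannot be told apart in these data. With 1 pooled sample there was no test, and the rule itself used these reads, so every contrast of arteriolar-marker cells with other cells is a description.

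Arteries deliver blood to the brain and branch into arterioles and then capillaries. Endothelium of large arteries sits against elastic laminae, which thin out and end along the arterioles. Arterial fate rests on VEGF and Notch signalling, with ephrin-B2 on the arterial side facing its receptor on the venous side, while capillaries hold most of the transporters that feed the brain across the barrier.

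Arteriolar-marker cells made up 55 of 300, 54 of 290, 44 of 285 and 54 of 312 cells on plates 521 to 524, or 18.3%, 18.6%, 15.4% and 17.3%. Their share was similar on the 4 plates, with overlapping intervals (11.4% to 23.6% over all of them). They held a median of 364927 reads and 4780 genes with a read per cell, against 359916 reads and 4403 genes in the 980 other cells. Classes of other cells, 3 in all, were set beside them. Elastic artery cells (57) had at least 2 arterial and at least 2 elastic genes on. Venous-marker cells (388) had fewer than 2 arterial genes and at least 2 of Nr2f2, Slc38a5, Vcam1, Vwf, Lcn2 and Ackr1 on. Mfsd2a-on capillary cells (368) had fewer than 2 arterial, venous or elastic genes on, and Mfsd2a, the lipid transporter of the brain capillary, was on. The latter pair of classes differed strongly between plates: venous-marker cells were 55.0%, 42.4%, 16.1% and 17.3% of plates 521 to 524 and Mfsd2a-on capillary cells 8.00%, 20.0%, 47.7% and 48.1%. Pooled values against other cells therefore mix cell class with plate, and for most of them the values by plate or the range of plate log2 ratios is given.

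The 6 arterial genes were not on together in most arteriolar-marker cells. Exactly 2 of them were on in 100 cells, 3 in 53, 4 in 33, 5 in 19 and all 6 in 2. Hey1, a transcription factor induced by Notch, was on in 62.8% of the cells and Sema3g, a secreted semaphorin, in 62.3%. Bmx, a tyrosine kinase of arterial endothelium, and Gkn3, a secreted protein found in brain arteries, were each on in 56.0%. Gja4, which encodes connexin 37, was on in 30.0% and Stmn2, a microtubule-destabilising stathmin, in 21.7%. The commonest of the combinations was Sema3g with Hey1 alone (28 cells), followed by Bmx, Gkn3, Sema3g and Hey1 together (14 cells) and Bmx with Gkn3 alone (13 cells). Among the 130 cells with Hey1 on, 66.2% also had Sema3g on and 50.0% had Bmx on.

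Levels of these genes spread widely from cell to cell. Summed over the 55, 54, 44 and 54 cells of the plates, Bmx stood at 302, 329, 164 and 354 CPM, and Gkn3 at 320.1, 361, 336 and 281 CPM. Hey1 stood at 189, 164, 396 and 348 CPM, while Gja4 stood at 165, 153, 83.3 and 52.7 CPM. Stmn2 was at 18.8, 40.5, 67.4 and 127 CPM. Hey1 and Stmn2 were thus highest on plates 523 and 524 and Gja4 on plates 521 and 522. In elastic artery cells all 6 genes were higher when plates were pooled, and on each plate except for Hey1 on plate 524 (150.3 against 348 CPM). The pooled levels were 767 against 293 CPM for Bmx, 910.4 against 323 for Gkn3, 289.6 against 181 for Sema3g, 331 against 272 for Hey1, 446 against 113 for Gja4 and 455 against 64.7 for Stmn2.

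Of the elastic genes, 165 arteriolar-marker cells had none on and 42 had 1. Fbln2, a fibulin of the vessel wall, was the gene most often on (10.1% of cells), with 3.24, 22.1, 106 and 48.6 CPM on plates 521 to 524. Fbln5, Mgp, Eln and Fbn1 stood at 3.90, 8.75, 4.18 and 6.98 CPM, against 896, 599, 262 and 145 CPM in elastic artery cells. These values restate the rule. At its thresholds, the members nearest the limit had a second arterial gene at 50.9, 56.3 and 57.6 CPM and the nearest cells outside at 47.8, 45.4 and 43.0 CPM. For the second elastic gene the highest member had 49.0 CPM and the lowest excluded arterial cell 58.3 CPM. In 33 of the 207 cells the second arterial gene was below 100 CPM.

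**Figure D1:**
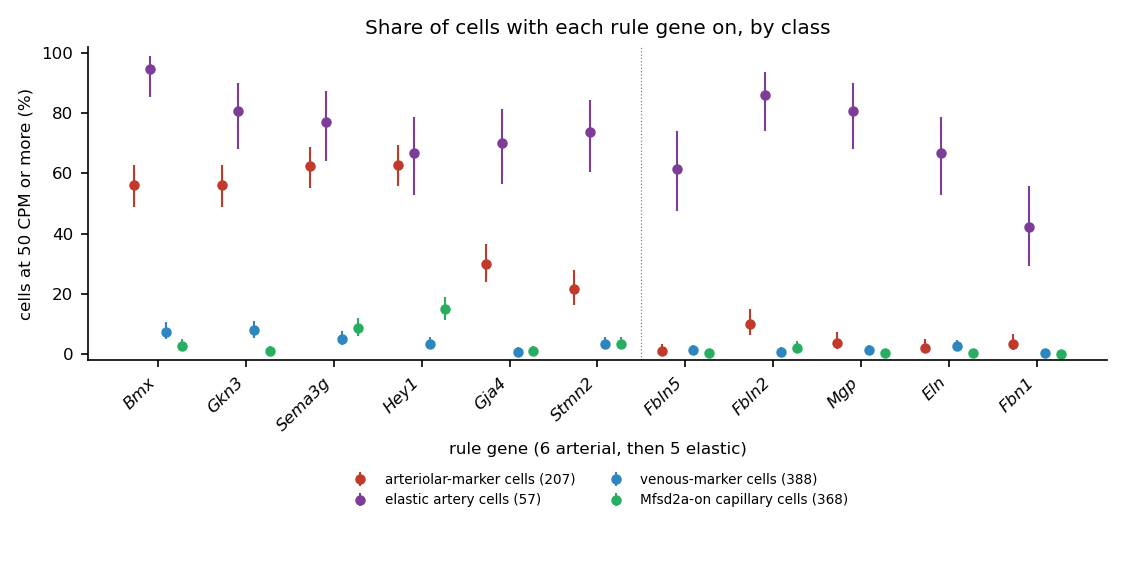
Share of cells with each rule gene at 50 CPM or more (vertical axis, percent) for the 6 arterial and 5 elastic genes in 4 classes of cells; points are shares and bars exact binomial 95% intervals. Bmx was on in 56.0% of arteriolar-marker cells and in 94.7% of elastic artery cells, and Fbln5 in 0.966% and 61.4%; these genes chose the classes.

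Genes outside the rule also differed in level. Against all other cells, 672 of 10369 genes at 10 CPM or more were at least 1.5-fold higher (6.48%) and 726 at least 1.5-fold lower (7.00%); with the same direction on all 4 plates these were 279 (2.69%) and 467 (4.50%). The rule used this contrast, and these shares are given as background. Ratios are of CPM from summed counts with 1 CPM added to both sides. Named genes had the largest ratios among genes with 20 CPM where they were higher, on there in 20% of cells or more, and lying on the same side on all 4 plates.

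Alox12, the arachidonate 12-lipoxygenase, led the higher genes. It stood at 77.5, 147, 329 and 238 CPM in arteriolar-marker cells of plates 521 to 524 and at 25.7, 36.6, 56.5 and 49.7 CPM in the other cells. Arteriolar-marker cells were higher on each plate, with no overlap, by 4.53-fold when pooled (log2 2.18, plate range 1.55 to 2.52), and Alox12 was on in 36.7% of them against 8.47%. Car4, a carbonic anhydrase anchored on the surface of capillary endothelium, led the lower genes. It stood at 38.1, 39.4, 222 and 133 CPM against 359, 629, 969 and 1189 CPM in the other cells. Each plate was lower, with no overlap, by 7.43-fold when pooled (log2 -2.89, plate range -3.96 to -2.12), and 15.9% of cells were on against 64.7%.

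Both genes lie on chromosome 11 of GRCm38 (GENCODE M21). Alox12 spans positions 70241457 to 70255353 on the minus strand and Car4 positions 84957786 to 84966044 on the plus strand. The 250 bases before each start are printed because these genes bound the contrast, and because Notch acts on arterial genes through RBPJ. Capitals mark TGGGAA, the core that RBPJ binds, or its reverse complement TTCCCA (RefSeq, GRCm38.p6; chr11:70255371-70255620 on the minus strand and chr11:84957504-84957753 on the plus strand).
Alox12: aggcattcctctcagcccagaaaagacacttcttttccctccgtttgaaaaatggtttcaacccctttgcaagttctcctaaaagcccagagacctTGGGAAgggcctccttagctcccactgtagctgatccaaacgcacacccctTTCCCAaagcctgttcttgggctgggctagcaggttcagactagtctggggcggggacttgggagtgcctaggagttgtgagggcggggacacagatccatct
Car4: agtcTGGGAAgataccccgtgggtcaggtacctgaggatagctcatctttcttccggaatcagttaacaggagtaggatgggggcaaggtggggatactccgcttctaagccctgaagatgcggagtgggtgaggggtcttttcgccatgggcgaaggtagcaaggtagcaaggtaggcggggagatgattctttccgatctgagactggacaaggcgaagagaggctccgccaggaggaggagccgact
Alox12 held the core at 2 places, beginning 154 and 103 bases before the start, and Car4 at 1 place, 246 bases before it. The core was found, on either strand, in 21.6% of all 32851 windows of this length. A match of 6 letters is a description of the sequence only.

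Among the other higher genes were Unc5b and Efnb2, 2 genes of axon and vessel guidance. Of the guidance list as a whole, 3 of 19 measured genes were higher (Sema3f, Unc5b and Efnb2) and 3 lower (Sema6a, Nrp2 and Epha2), with a median log2 ratio of -0.02. Among all genes 6.48% were higher and 7.00% lower. Unc5b, a netrin receptor of arterial endothelium, stood at 121, 90.5, 227 and 275 CPM against 22.4, 37.7, 49.0 and 57.5 CPM on plates 521 to 524, a log2 ratio of 2.08 when pooled. Efnb2, the arterial ligand ephrin-B2, stood at 94.5, 36.3, 113 and 115 CPM against 33.5, 28.1, 28.1 and 42.2 CPM (log2 1.41, plate range 0.36 to 1.98). Egfl8, a secreted protein with EGF-like repeats, differed little between plates, at 285, 297, 362 and 307 CPM against 108, 100.2, 103 and 86.6 CPM (log2 1.63, plate range 1.39 to 1.81). It was on in 65.2% of arteriolar-marker cells and in 27.9% of the others. Col18a1, whose collagen gives rise to endostatin, stood at 80.5 against 27.9 CPM (plate log2 1.24 to 1.74) and Igfbp3, which binds insulin-like growth factors, at 104 against 33.2 CPM (0.74 to 3.46). Against elastic artery cells, with plates pooled, Egfl8, Col18a1 and Igfbp3 were at least 1.5-fold lower, Unc5b at least 1.5-fold higher and Efnb2 in between.

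Slc26a10, a member of an anion transporter family (log2 1.55), and Arhgef25, a guanine nucleotide exchange factor (log2 1.93), are neighbours on chromosome 10, at 127171393 to 127180645 and 127182525 to 127190083. Both were higher on each plate. The remaining higher genes were Crispld1 (log2 1.72), the sialyltransferase St8sia6 (1.43), the galactokinase Galk1 (1.28) and Rad54b (1.54), a gene of DNA recombination. Another gene model overlaps 12 of the 24 named genes. Fsbp with Rad54b and Ang with Rnase4 lie on the same strand, so a strand setting could not part their reads. Others, such as B4galnt1 with Slc26a10, lie on opposite strands, and the labels and headers used here do not say whether counting used strand. A count may therefore hold reads of both models.

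Lower genes included parts of capillary uptake. Tfrc, the transferrin receptor that brings iron across the barrier, stood at 307, 344, 582 and 225 CPM against 725, 779, 1383 and 1303 CPM on plates 521 to 524, a log2 ratio of -1.57 when pooled. The classes did not overlap over the plates. Ndnf, a secreted neurotrophic factor (log2 -1.78), and Tiam1, a Rac exchange factor (-1.67), were lower on each plate. Rnase4 (-2.13), the spermine oxidase Smox (-1.47), the actin-binding thymosin Tmsb10 (-1.39), the peptidoglycan-binding Pglyrp1 (-1.26) and Flrt2 (-1.60) were lower too. Cacna1e, a calcium channel subunit (-1.63), and Adm, the vasodilator adrenomedullin (-1.34), differed widely by plate: plate log2 ratios ran from -4.51 to -0.97 for Cacna1e and from -1.99 to -0.01 for Adm, which on plate 523 stood at 24.2 against 24.3 CPM.

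**Figure D2:**
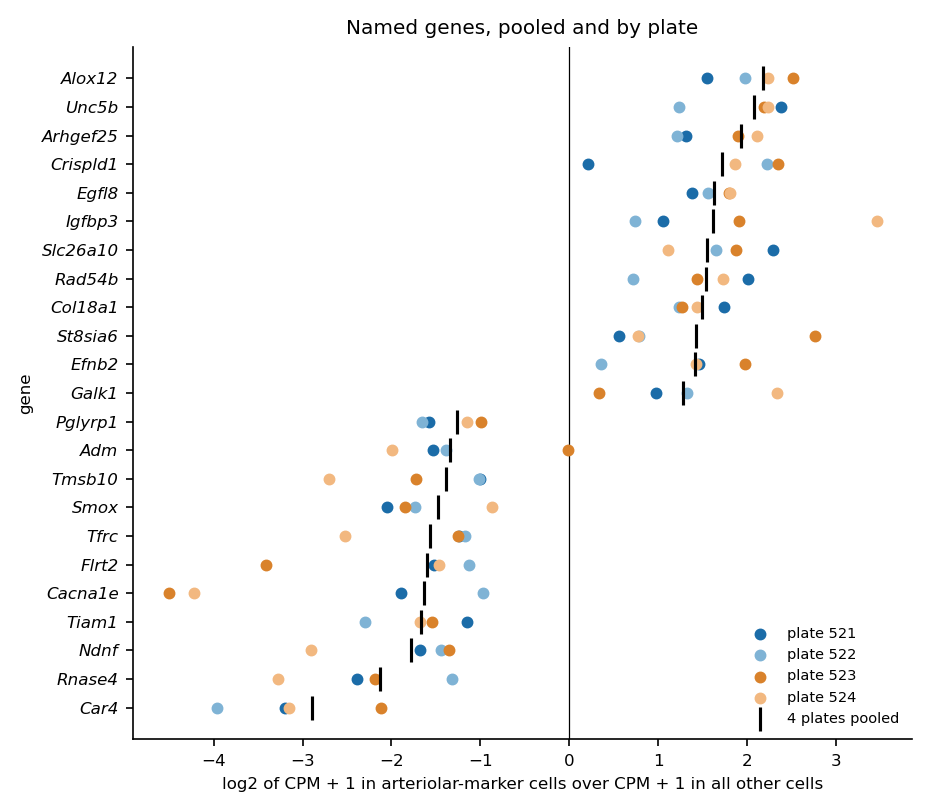
Log2 ratio of CPM + 1 in arteriolar-marker cells over all other cells (horizontal axis) for the 12 highest and 11 of the 12 lowest named genes; coloured points are plates and black bars the plates pooled. Alox12 (2.18) and Car4 (-2.89) bound the range, and no plate point crosses 0 because the naming rule required it.

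Across gene lists, other arterial genes lay mostly on the higher side. Of 25 listed genes 23 reached 10 CPM, and 12 were past 1.5-fold on the higher side and 1 on the lower, where 6.48% and 7.00% of all genes were. The median log2 ratio was 0.61 against 0.00 for all genes, and by plate it was 0.36, 0.48, 0.76 and 0.94. Glul, glutamine synthetase, stood at 787, 845, 984 and 975 CPM against 284, 349.6, 453 and 453 CPM (log2 1.22), with no overlap between the classes over the 4 plates. Tgfb2, the ligand TGF-beta 2, stood at 322, 378, 270.4 and 420.1 CPM against 136, 147, 159.7 and 218 CPM (log2 1.08), also without overlap. Alpl, tissue-nonspecific alkaline phosphatase, stood at 84.5, 261, 593 and 539 CPM against 96.5, 129, 143 and 173 CPM: it was higher on plates 522, 523 and 524 and slightly lower on plate 521. Clu, which encodes clusterin, was the gene of this list on the lower side. It is abundant in elastic artery cells, which are among the other cells.

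Notch genes showed smaller differences. Of 20 measured, none was past 1.5-fold on the higher side and 1, the feedback inhibitor Nrarp, on the lower, where 6.48% and 7.00% of all genes were. The median log2 ratio was -0.08 pooled and -0.04, 0.12, 0.13 and 0.10 by plate. The ligands Jag2 (156 against 104 CPM, plate log2 0.21 to 0.74) and Dll4 (283 against 208 CPM, 0.01 to 0.83) and the receptors Notch1 (343 against 249 CPM, 0.28 to 0.63) and Notch4 (179 against 127 CPM, 0.19 to 0.71) were above the other cells on all 4 plates and under 1.5-fold when pooled. The ligand Jag1 stood at 109.8 against 119 CPM (-0.73 to 0.52) and the target Hes1 at 180.4 against 177 CPM (-0.01 to 0.13). Set against elastic artery cells, which are among the other cells, 8 of 21 Notch genes, Jag1 among them, were at least 1.5-fold lower and 1 higher. Among all genes 18.1% were lower and 20.3% higher in that contrast. The Notch median there was -0.07 pooled and 0.04, 0.08, -0.36 and -0.33 by plate. The part of elastic artery cells in the ratios against all other cells was not tested. Hey1 had chosen the cells and is not counted.

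Vascular transcription factors (2 of 25 higher, 2 lower) and TGF-beta and BMP genes (2 of 18 higher, 1 lower) were past 1.5-fold about as often as all genes (6.48% and 7.00%). The factors higher were Prdm16 (162 against 71.4 CPM, plate log2 0.75 to 1.64) and Mecom (256 against 167 CPM, -0.57 to 1.39, lower on plate 521), and those lower were Tal1 and the venous factor Nr2f2. Tgfb2 and the inhibitory Smad6 (35.8 against 15.6 CPM, 0.33 to 1.85) were higher, and Bmp4 lower. Gja1, which encodes connexin 43, stood at 146, 205, 296 and 404 CPM against 109, 179, 237 and 149 CPM (log2 0.66, higher on all plates); astrocytes also make it. Of 12 measured ion channel and receptor genes that bear on vessel tone, 3 were higher, among them the inositol trisphosphate receptor Itpr3 (133 against 68.7 CPM, plate log2 0.35 to 1.30); the list's median was -0.26, -0.07, 0.47 and 0.22 by plate.

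Matrix genes beyond the 5 of the rule were not uniformly low. Of 32 listed, only 8 reached 10 CPM, and of these 4 were past 1.5-fold on the higher side and 1, fibronectin (Fn1), on the lower. The shares of all genes were 6.48% and 7.00%. Ltbp4, which binds latent TGF-beta and takes part in elastic fibre assembly, stood at 301, 398, 1066 and 1089 CPM against 225, 311, 634 and 647 CPM on plates 521 to 524 (log2 0.64). Ltbp1, a relative of Ltbp4, stood at 12.2 against 7.53 CPM (plate log2 -1.13 to 1.34, lower on plate 524) and the collagen gene Col14a1 at 42.1 against 24.6 CPM (0.11 to 2.21). Col18a1 was given above. Set against elastic artery cells, all 4 of these genes were at least 1.5-fold lower when plates were pooled.

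Interferon-response genes lay on the higher side. Of 16 measured, 4 were past 1.5-fold on the higher side (Ifit1, Ifit2, Irf7 and Rsad2) and none on the lower. Among all genes 6.48% were higher and 7.00% lower. The median log2 ratio was 0.40, or 0.40, 0.17, 0.32 and 0.46 by plate. Rsad2, the antiviral viperin, stood at 61.3, 58.7, 288 and 205 CPM against 26.3, 28.2, 119.5 and 156 CPM, so that the other cells of plates 523 and 524 were above the arteriolar-marker cells of plates 521 and 522.

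Venous markers were lower: 14 of 15 by at least 1.5-fold and none higher, where 7.00% and 6.48% of all genes were. The median log2 ratio was -1.58 pooled and -1.33, -1.12, -2.10 and -2.05 by plate. Nr2f2, the transcription factor of venous fate, stood at 2.17 against 21.1 CPM (plate log2 -3.97 to -1.82), and Aplnr, the apelin receptor, at 0.759 against 46.1 CPM (-6.10 to -3.94). Some of the counted genes, among them Nr2f2, Aplnr and Lcn2 (6.29 against 21.8 CPM), reached 10 CPM in the other cells alone. Their side was fixed by the filter, so the count of venous markers is a description. Vwf, von Willebrand factor, stood at 1010.1, 840.4, 229.5 and 151 CPM, below the other cells of each plate (1704, 1153, 433 and 285 CPM). Of the 207 cells, 70 (33.8%) still had at least 2 of the 6 genes of the venous class on, against 42.0% of cells with fewer than 2 arterial genes on. Leukocyte adhesion genes overlapped with this list, and 7 of 13 were lower (median -0.68 pooled and -0.61, -0.46, -0.92 and -0.06 by plate).

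Capillary markers were lower by less. Of 12 measured, 6 were past 1.5-fold on the lower side and none on the higher, where 7.00% and 6.48% of all genes were. The median log2 ratio was -0.60 pooled and -0.87, -0.65, -0.44 and -0.44 by plate. Of 24 barrier transporters 8 were lower against 1 higher (median -0.33 pooled and -0.23, -0.38, -0.11 and -0.47 by plate). The lower transporters were Slc7a5, Slc38a3, Slc38a5, Slc16a1, Slc22a8, Slc1a1, Slc40a1 and Tfrc. The capillary and transporter lists overlap: Slc7a5, Slc16a1, Slc22a8 and Tfrc are counted as lower in both. Slc7a5, the large neutral amino acid transporter, stood at 593, 717, 932 and 828 CPM against 1127, 1183, 1530.4 and 1330.4 CPM, lower on each plate (log2 -0.76). Slc6a6, the taurine transporter, was the one higher: 2576, 2801, 2919 and 3011 CPM against 862, 1531, 2293 and 2654 CPM (log2 0.62, plate range 0.18 to 1.58). Mfsd2a itself was on in 118 of the 207 cells (57.0%), against 55.5% of the other cells. Junction genes (median -0.05, 1 of 14 lower) and general endothelial markers (0.05, none of 12 past 1.5-fold) had medians near 0; Cldn5, the reporter's gene and main claudin of the barrier, was at 3989.7 against 4049 CPM.

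Within the arteriolar-marker cells, arterial genes, capillary markers and barrier transporters were graded with the number of arterial rule genes on. The 207 cells were split into 100 with 2 on, 53 with 3 and 54 with 4 or more. Median depth was 376066, 350253 and 363587 reads. Alpl stood at 199.7, 479.8 and 567 CPM over these steps, against 40.9 CPM in cells with no arterial gene on and 1394 CPM in elastic artery cells. Egfl8 stood at 168, 427 and 468 CPM (57.8 and 655 CPM in those outer classes), and Glul at 696, 1035 and 1139.9 CPM (276 and 1323 CPM).

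All of these were higher with 4 or more genes on than with 2 on each plate. Alpl, for example, went from 0, 81.5, 261 and 481 CPM with 2 on to 157, 689, 965 and 666 CPM with 4 or more, and Egfl8 from 138, 162, 179 and 193 CPM to 442, 490.0, 377 and 513 CPM. Of the 25 other arterial genes, 12 were higher at each step and 1 (Cxcl12) lower, while among 9921 genes 14.9% were higher at each step and 16.0% lower. Those 9921 genes stood at 10 CPM or more in arteriolar-marker cells, while counts for lists by step took every listed gene. Jag2 (118, 159.7 and 224 CPM) and Tm4sf1, a membrane protein of endothelium (1133, 1449.8 and 1518 CPM), were among those higher on each plate. Among junction genes 2 of 16 were higher at each step and 1 lower, among Notch genes 3 and 5 of 24, and among general endothelial markers 0 and 2 of 12. Summed smooth muscle markers stood at 31.3, 26.3 and 81.4 CPM over the steps and at 103 CPM in elastic artery cells. By plate they went from 13.4, 45.4, 49.4 and 17.8 CPM with 2 on to 116, 51.5, 72.9 and 77.8 CPM with 4 or more, higher on each plate, and their part in the arterial order was not tested.

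Capillary genes showed the opposite order. Car4 stood at 200.1, 22.2 and 7.36 CPM with 2, 3 and 4 or more arterial genes on, and at 973 CPM with none on. By plate it went from 65.9, 68.4, 442 and 283 CPM with 2 on to 0.706, 0.793, 41.0 and 3.84 CPM with 4 or more, lower on each plate. Tfrc stood at 515, 253 and 151 CPM, Slc7a5 at 965, 719 and 431 CPM, and Slc38a3, a glutamine transporter, at 538, 373 and 233 CPM. Of 12 capillary markers 9 were lower at each step and none higher. Of 24 barrier transporters 12 were lower and 1 higher, the taurine transporter Slc6a6 (2257, 3279 and 3463 CPM). Genes on both of these lists, such as Tfrc and Slc7a5, are counted in each. Of the 16 interferon-response genes 7 were higher at each step and 1, Irf1, lower.

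Mfsd2a did not share this order. It stood at 697, 544 and 621 CPM over the same steps and at 607 CPM in cells with no arterial gene on. In elastic artery cells it stood at 50.7 CPM. Spock2, a matrix proteoglycan, stood at 1390.5, 1488 and 1418 CPM, and Slc2a1, the glucose transporter of the barrier, at 3377, 3718 and 3584 CPM. The number of genes on is the rule's own measure, so these orders describe how other genes lay against it. Cells with 4 or more on also had more genes with a read (median 5096.5 against 4790.5 with 2 on), whose part was not tested.

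**Figure D3:**
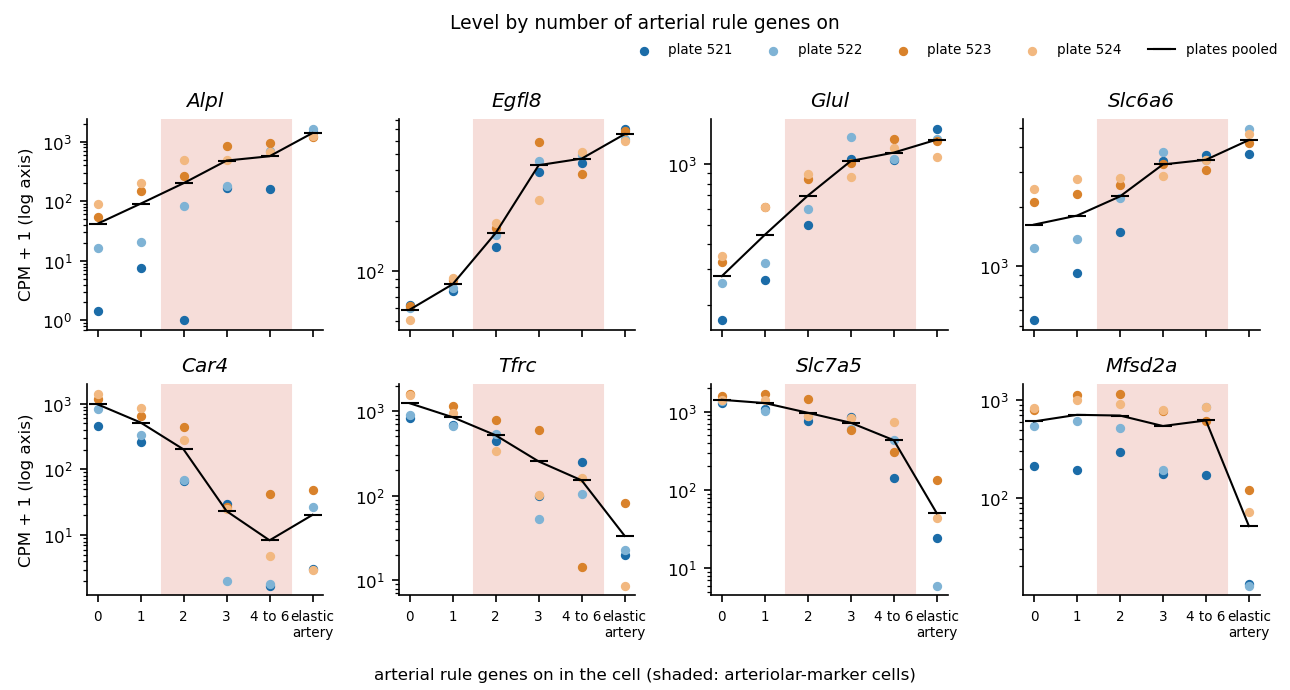
CPM + 1 on a log axis (vertical) by the number of arterial rule genes on in the cell, with elastic artery cells at the right; points are plates, black lines the plates pooled, and shading marks arteriolar-marker cells. Alpl, Egfl8, Glul and Slc6a6 were highest at the arterial end, Car4, Tfrc and Slc7a5 lowest, and Mfsd2a stood at 697, 544 and 621 CPM within the shaded steps and 50.7 CPM in elastic artery cells.

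Set against elastic artery cells, arteriolar-marker cells differed at more genes: 2171 of 10672 genes at 10 CPM or more were at least 1.5-fold higher (20.3%) and 1932 at least 1.5-fold lower (18.1%); with the same direction on all 4 plates these were 1025 (9.60%) and 552 (5.17%). The smaller class has 57 cells, 12 to 16 per plate, which widens single ratios. Capillary markers were higher at 11 of 12 genes (median log2 2.86; 2.40, 3.59, 2.18 and 3.82 by plate), and barrier transporters at 16 of 24 with 1 lower (median 1.68; 1.74, 1.93, 1.72 and 1.48 by plate). Slc7a5 stood at 763 against 49.4 CPM (plate log2 2.81 to 6.90), Tfrc at 354 against 32.5 CPM (2.83 to 4.71) and Mfsd2a at 639 against 50.7 CPM (2.93 to 5.46). These genes are on both lists and are counted in each. The gene on the lower side was Slc6a6 (2828 against 4361 CPM).

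Of the 8 named genes higher than in elastic artery cells, 3 encode transporters. By the naming rule each of the 8 was higher on all 4 plates. Each of the 8 reached 10 CPM in arteriolar-marker cells alone, so its side was fixed by the filter. Slc38a5, a glutamine transporter, stood at 391, 327, 74.1 and 72.5 CPM on plates 521 to 524 against 8.35, 1.54, 1.42 and 0.716 CPM, without overlap. Slc1a1, a glutamate transporter, stood at 198 against 8.57 CPM, the sterol exporter Abcg1 at 65.6 against 3.22 CPM, and Ddc, the aromatic amino acid decarboxylase, at 207 against 9.46 CPM. The cell-cycle inhibitor Cdkn2b stood at 54.3 against 2.18 CPM, and Kcp, a secreted regulator of BMP signalling, at 53.3 against 1.09 CPM. The paralogous Ctla2a and Ctla2b were at 278 against 7.03 and 119.9 against 0.545 CPM, though counting may split reads between these 2 similar genes.

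Most other arterial genes were lower than in elastic artery cells: 15 of 25 lower and 2 higher, where 18.1% and 20.3% of all genes were. The median log2 ratio was -1.07 pooled and -1.88, -1.20, -0.80 and -1.09 by plate. Jag1 stood at 109.8 against 612 CPM, Gja5, which encodes connexin 40, at 4.61 against 74.1 CPM, Cdh13 at 50.8 against 389.5 CPM and the calcium pump Atp2a3 at 38.9 against 395 CPM, each lower on all 4 plates. The exceptions were Unc5b (179 against 106 CPM, higher on 2 of 4 plates) and the chemokine Cxcl12 (1994 against 644 CPM, higher on 4).

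Named genes lower than in elastic artery cells included matrix and secreted proteins. Clu stood at 54.0, 50.9, 3.21 and 4.33 CPM against 617, 655, 755 and 712 CPM, without overlap. Serpinf1 stood at 1.28 against 112 CPM, Pi16 at 1.31 against 136 CPM and Kazald1 at 4.28 against 129 CPM. Scara3 (0.0533 against 69.5 CPM), Emp1 (0.573 against 97.5), Ddr1, a collagen receptor (0.0933 against 31.7), and Col5a2 (1.43 against 56.7) were near 0 in arteriolar-marker cells. All of these named genes except Clu reached 10 CPM in elastic artery cells alone, so their side was fixed by the filter. Of 21 further matrix genes 17 were lower and none higher (median -2.29 pooled), and by plate the median was -0.59, -0.86, -3.99 and -0.52. Against all other cells only 8 of the listed matrix genes had reached 10 CPM. A gene that reached 10 CPM in elastic artery cells alone could only lie on the lower side, and matrix genes chose that class. The count of matrix genes is therefore a description. All 8 fibroblast markers were lower when plates were pooled, summing to 14.6 against 206 CPM. Each reached 10 CPM in elastic artery cells alone, so their side was fixed by the filter. By plate the sums were 11.8, 0.376, 16.1 and 28.8 CPM in arteriolar-marker cells against 7.67, 3.26, 832 and 0.716 CPM in elastic artery cells, so that arteriolar-marker cells were lower on plates 522 and 523 and higher on plates 521 and 524. Their part in the matrix result was not tested. Summed pericyte markers stood at 7.95, 16.4, 78.5 and 64.6 CPM by plate against 23.0, 19.8, 514 and 30.3 CPM in elastic artery cells.

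Vessel-tone and immediate early genes stood lower than in elastic artery cells. Of 13 vessel-tone channels and receptors 9 were lower and 1 higher, where 18.1% and 20.3% of all genes were. The median log2 ratio was -1.23 pooled and -1.55, -1.57, -0.55 and -1.33 by plate. Kcnn4, the intermediate-conductance potassium channel, stood at 0 CPM in arteriolar-marker cells and 28.2 CPM in elastic artery cells. It was thus counted through elastic artery cells alone. Of 16 immediate early genes 9 were lower and none higher (median -0.60; -0.64, -0.93, -0.70 and -0.25 by plate), with Fos at 937 against 1978 CPM and Egr1 at 139.8 against 427 CPM. The flow-responsive factors Klf2 (382 against 715 CPM) and Klf4 (209.8 against 501 CPM) were lower on all 4 plates as well. As background, immediate early genes also respond to cell isolation. Against all other cells, none of the 16 immediate early genes passed 1.5-fold.

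Against venous-marker cells, 1010 of 10403 genes at 10 CPM or more were at least 1.5-fold higher (9.71%) and 1045 at least 1.5-fold lower (10.0%); with the same direction on all 4 plates these were 483 (4.64%) and 550 (5.29%). Other arterial genes were higher at 18 of 23 and lower at none (median log2 1.54; 1.00, 1.67, 1.75 and 1.88 by plate). Alpl stood at 84.5, 261, 593 and 539 CPM against 0.862, 3.21, 0.301 and 26.7 CPM, with no overlap. Unc5b stood at 179 against 10.7 CPM and Col18a1 at 80.5 against 3.92 CPM. Aif1l, an actin-bundling protein, stood at 165 against 14.4 CPM. Gpm6a, a membrane glycoprotein, was the lowest (4.86 against 100.1 CPM), with the nectin Pvrl2 (6.29 against 52.4 CPM) and the interleukin-1 receptor Il1r1 (17.7 against 113 CPM). Except for Alpl, single-gene values of this paragraph are pooled and mix class with plate. Venous-marker cells numbered 165, 123, 46 and 54 on plates 521 to 524. Capillary markers were split, with 4 of 12 higher, among them Mfsd2a and Spock2, and 6 lower.

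Against Mfsd2a-on capillary cells, 1196 of 10352 genes at 10 CPM or more were at least 1.5-fold higher (11.6%) and 866 at least 1.5-fold lower (8.37%); with the same direction on all 4 plates these were 511 (4.94%) and 408 (3.94%). Other arterial genes were higher at 15 of 23 and lower at 1, Nrp1 (median log2 1.08; 1.19, 0.58, 1.07 and 1.09 by plate). Tmem100, a membrane protein induced by BMP signalling, stood at 28.0, 14.8, 187 and 250.3 CPM against 0.113, 5.34, 7.41 and 10.5 CPM, again without overlap. Fhl1 (74.8 against 6.30 CPM), Igfbp4 (116 against 12.9 CPM), Tmem176a (62.3 against 8.81 CPM) and Kank4 (77.9 against 15.4 CPM) were also higher. Except for Tmem100, single-gene values of this paragraph are pooled and mix class with plate. Mfsd2a-on capillary cells numbered 24, 58, 136 and 150 on plates 521 to 524. Igfbp4 in arteriolar-marker cells stood at 159, 256, 39.1 and 14.4 CPM on these plates. Of 22 barrier transporters 11 were lower and none higher (median -0.49; -0.24, -0.48, -0.25 and -0.55 by plate), and Palm and the apoptosis regulator Pmaip1 were among the named lower genes (94.6 against 278 and 66.4 against 192 CPM). Pooled and within-plate values differed here: venous markers had a pooled median of 0.29 and medians of 0.31, 0.66, -1.22 and -1.36 on plates 521 to 524.

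**Figure D4:**
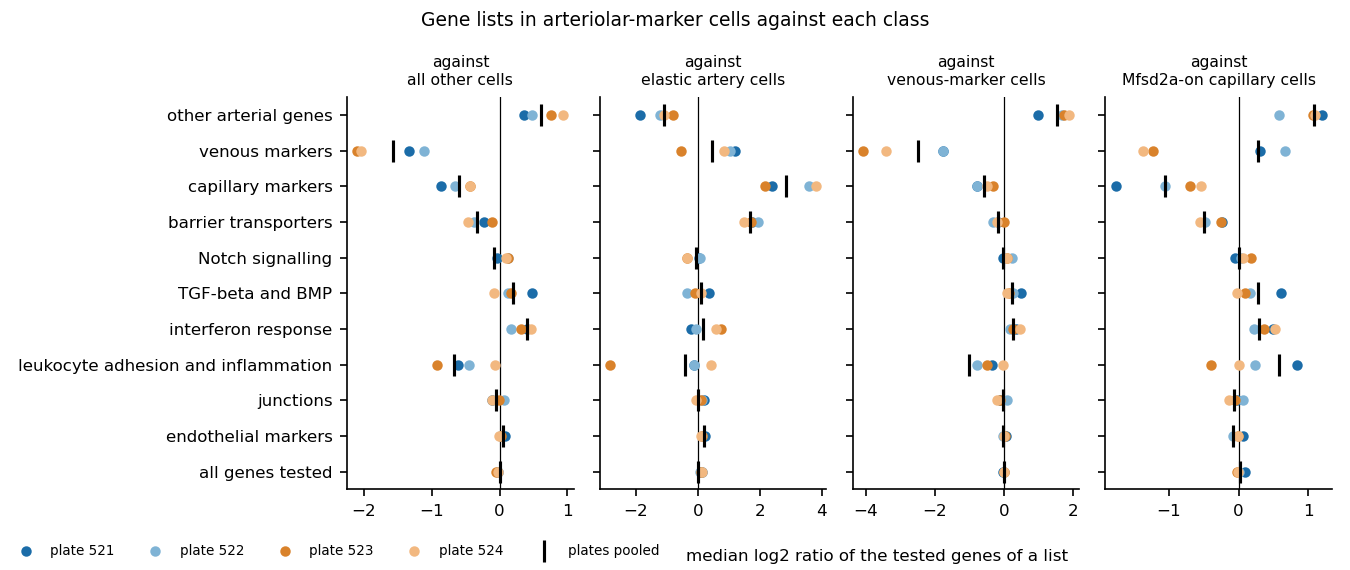
Median log2 ratio of the measured genes of each list (horizontal axis) in arteriolar-marker cells against 4 sets of other cells; points are plates and black bars the plates pooled. Other arterial genes lie at 0.61 against all other cells and at -1.07 against elastic artery cells, and capillary markers at -0.60 and 2.86.

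The cells also differed by which arterial genes were on, a split chosen after values had been seen. Bmx and Gkn3 were both on in 74 cells, 1 of them in 84 and neither in 49, which were then cells with at least 2 of Sema3g, Hey1, Gja4 and Stmn2 on. This split was not separate from the number of arterial genes on. The commonest combination with neither on was Sema3g with Hey1 alone (28 cells). With both on it was Bmx, Gkn3, Sema3g and Hey1 together (14 cells). The part of the number on in the differences below was not tested. Car4 stood at 9.98 CPM with both on and 285 CPM with neither on, and Mfsd2a at 535 and 965 CPM. Cxcl12 stood at 1696 and 2590.4 CPM. These 3 were higher with neither on than with both on, on all 4 plates. Vwf went the other way, at 844 CPM with both on and 292 CPM with neither, and was lower with neither on each plate; Egfl8 did so too (417 and 205 CPM). Efnb2 stood at 115 and 122 CPM, and Unc5b at 176 and 171 CPM. The 2 states lay unevenly over the plates, at 20, 27, 11 and 16 cells with both on and 10, 8, 15 and 16 with neither.

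Between plates, 1421 of 4951 genes considered differed over 2-fold between the highest and the lowest plate in arteriolar-marker cells, and 422 did so in the other cells. Of the 1421, 569 had the same highest plate in both classes. Arteriolar-marker cells numbered 44 to 55 per plate and other cells 236 to 258, and the part of cell number in these counts was not tested. The genes given here were chosen after their values on the plates had been seen. Man2c1, a cytosolic mannosidase, differed between plates in arteriolar-marker cells (80.1, 42.8, 3.27 and 34.1 CPM) and little in the other cells (41.8, 46.3, 39.5 and 38.5 CPM). Ublcp1, a phosphatase, did so too, at 63.9, 52.4, 4.79 and 87.6 CPM against 59.4, 63.8, 56.8 and 68.1 CPM, and so did G6pc3, a glucose-6-phosphatase, at 63.2, 84.5, 7.09 and 47.7 CPM against 35.9, 49.2, 45.5 and 26.8 CPM. All 3 were lowest on plate 523 in arteriolar-marker cells. Other genes differed between plates in both classes. Bgn, the matrix proteoglycan biglycan, stood at 496, 249, 14.8 and 0.0962 CPM on plates 521 to 524 and at 526, 181, 21.1 and 4.16 CPM in the other cells. Bmp6, a BMP ligand, stood at 162, 123, 0 and 0 CPM against 141, 60.0, 0.996 and 1.80 CPM. Fgfbp1, which releases fibroblast growth factors from matrix, stood at 379, 298, 0 and 0 CPM against 767, 286, 12.6 and 0.567 CPM.

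Edn1, the vasoconstrictor endothelin 1, had the same order, at 1486, 1013, 258 and 166 CPM against 870.3, 489.9, 222 and 112 CPM, with arteriolar-marker cells above the others on each plate. The Vwf levels given above had this order as well, with arteriolar-marker cells under the others. Ptgis, prostacyclin synthase, stood at 293, 134, 10.3 and 3.03 CPM, and Ctgf, a matricellular growth factor, at 582, 442, 38.8 and 17.1 CPM.

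Alpl, Tmem100 and St8sia6 were higher on plates 523 and 524 than on plates 521 and 522. Tmem100 stood at 28.0, 14.8, 187 and 250.3 CPM against 27.3, 20.2, 25.9 and 45.5 CPM in the other cells. St8sia6 stood at 15.8, 36.5, 320.3 and 246 CPM against 10.4, 20.8, 46.2 and 143 CPM. On plates 523 and 524 arteriolar-marker cells were above the other cells for both genes, while on plates 521 and 522 the levels of both genes in both classes lay between 10.4 and 36.5 CPM. Mfsd2a stood at 232, 557, 925 and 859 CPM, and at 190.5, 528, 839.7 and 849.6 CPM in the other cells of those plates. Pdgfb, the gene altered in these mice, stood at 240.3, 189.5, 236 and 189.8 CPM against 209, 159.5, 200.2 and 162 CPM, higher on each plate by 0.20 to 0.25 on the log2 scale; its read count does not show the ret allele.

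**Figure D5:**
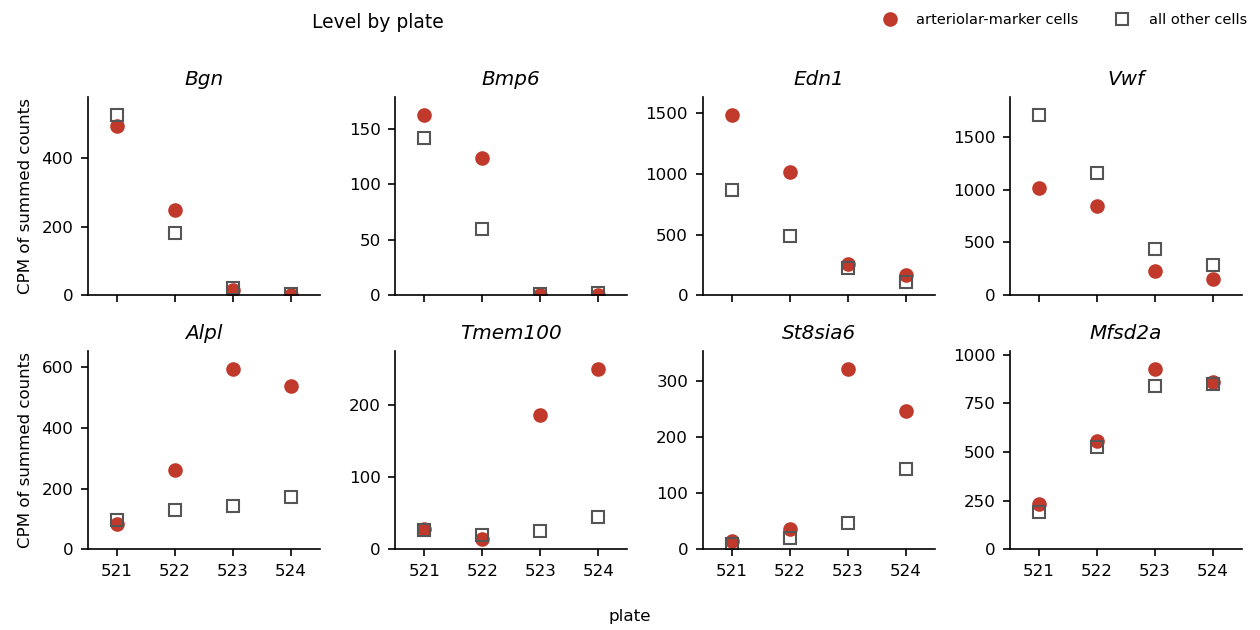
CPM of summed counts (vertical axis, from 0) on plates 521 to 524 in arteriolar-marker cells (filled circles) and all other cells (open squares) for 8 genes. Bgn and Bmp6 are near 0 on plates 523 and 524 in both classes, while St8sia6 is higher on those plates in both classes and Tmem100 mainly in arteriolar-marker cells; plate, genotype and animal cannot be told apart.

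Markers of other cell types were low in the arteriolar-marker cells. Markers of smooth muscle, the neighbour of arteriolar endothelium, summed to 43.2 CPM over 9 genes (42.5, 41.9, 55.5 and 35.4 CPM by plate) against 32.4 CPM in the other cells, with Mylk at 24.9 CPM. For 10 pericyte markers the sums were 7.95, 16.4, 78.5 and 64.6 CPM by plate, against 28.3, 28.1, 153 and 92.1 CPM, and Kcnj8 and Higd1b had no read. Astrocyte markers summed to 322 against 224 CPM, of which Gja1 gave 265, and neuron markers to 246 against 192 CPM, of which Stmn1 gave 215. The part of these levels in the results was not tested. A further count took cells holding 3 or more such genes of a single non-endothelial type, each from 100 CPM; it found 24 cells, of which 1, with astrocyte markers, was an arteriolar-marker cell.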

How the data were processed

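The deposited table holds whole-number read counts per gene, made by the authors, with 46517 genes in 1187 cells. The tools, per the submitters' processing notes, were featureCounts from Subread 1.4.6-p5, TopHat2 2.1.1 and SAMtools 0.1.18, on GRCm38 (mm10), with no strand setting given in the sources used here. No reads were filtered further and no cell or column was left out (100779 to 584112 reads per cell, no identical columns). All cells form 1 pooled sample, and plate is the batch; no doublet caller was run, and no p-value was computed. Members and gene lists were chosen with earlier results of these data known. Counts were summed over the cells of a class, scaled to CPM and compared as log2 ratios with a prior of 1 CPM, for genes at 10 CPM or more on either side; the call is 1.5-fold. Named genes are the 12 highest and 12 lowest against all other cells and the 8 highest and 8 lowest in the other comparisons, at 20 CPM or more, on in 20% of cells of the higher class and in the same direction on all plates; Gm and Rik models, mitochondrial genes and pseudogenes are not named. A few genes that met the rule are not reported here. Exact Poisson and Clopper-Pearson intervals at 95% were used. The ratio and call were tested on simulated data. Alternatives changed the rule, thresholds, prior, filter, scaling, depth (cells thinned to 100000 reads) and plates. Software was Python 3.11.15, numpy 2.4.6, scipy 1.17.1, pandas 2.3.3 and matplotlib 3.10.9.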

Additional observations from a re-analysis of the deposited data

How the results depend on the processing

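The cells are 1 pooled sample, so no value has a replicate check, and the counts of genes past 1.5-fold depend on the settings. The share of cells (17.4%) became 9.01% with at least 3 arterial genes on, 13.9% with no elastic gene on, and 14.4%, 14.3%, 13.2% and 13.1% with Bmx, Gkn3, Hey1 or Sema3g left out of the rule. Against all other cells, 1050 genes were higher and 1261 lower with at least 3 arterial genes on. With genes at 50 CPM or more, higher and lower counts were 190 and 172 against all other cells, 825 and 816 against elastic artery cells, 328 and 339 against venous-marker cells and 379 and 261 against Mfsd2a-on capillary cells. With no filter on low values they were 1980 and 2609, 5078 and 3754, 2666 and 2901, and 3084 and 2801. Means of within-plate ratios, an alternative chosen after seeing the data, gave 1180 lower against all other cells and 3544 higher against elastic artery cells.

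For the named genes no ratio between classes changed sign under the alternatives run. These genes were chosen for large ratios with the same direction on all 4 plates. Averaging plates therefore could not change a sign, and leaving out a plate could hardly do so. The median of vessel-tone genes against Mfsd2a-on capillary cells (0.63) became -0.14 at 50 CPM, -0.076 with no filter and -0.16 without plate 524. That of pericyte markers became 0.019 within plates against elastic artery cells (-1.39 pooled) and -0.17 against venous-marker cells (0.62 pooled). Between cells with 4 or more and 2 arterial genes on, Gja5 became -0.13 without plate 521 and Lypd1 0.071 without plate 524. The cause was not tested. No paired analysis was possible because no column could be given a sample, genotype or replicate number.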
